A study of Mus musculus with 12 samples.

Results

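Light zone (LZ) and dark zone (DZ) B cells of high antigen affinity were compared in 6 of the 12 arrays of a mouse germinal centre study, 3 from LZ cells (LZ_high) and 3 from DZ cells (DZ_high). The cells were SwHEL B cells, which carry an engineered receptor for hen egg lysozyme and the congenic marker CD45.1, and had been transferred into C57BL/6J mice (CD45.2). The recipients received sheep red blood cells that were coupled to the lysozyme mutant HEL3x, and all 4 groups of the study share this transfer and immunization. On day 10, donor cells that were IgG1+, CD45.2- and CD38 low were sorted from the spleens of female mice. LZ cells were taken as CD86 high and CXCR4 low, and DZ cells as CXCR4 high and CD86 low. The other 6 arrays hold the LZ and DZ cells of low affinity (LZ_low and DZ_low, 3 each). The gate that separated high from low affinity, the age of the mice and whether replicate arrays represent different animals are not given in the labels. The p-values therefore reflect only how far these arrays differ among themselves, which may be technical. Each suffix in the sample descriptions is shared by 1 array of each group, and these matched sets are numbered 1 to 3.

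Germinal centres form in spleen and lymph nodes after immunization and raise the affinity of the B cell response. In the dark zone, B cells divide and mutate their antigen receptor genes, and the chemokine receptor CXCR4 holds them there. In the light zone, cells test the mutated receptor on antigen shown by follicular dendritic cells, present peptides to T follicular helper cells, and receive signals through the B cell receptor and CD40, which turn on NF-kB target genes and, in selected cells, Myc.

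The values are log2 expression values after RMA, the standard summary of Affymetrix probe intensities, and a difference is LZ_high minus DZ_high on that scale. A gene is the probe set with 1 gene symbol and the highest mean over the 12 arrays, and 11206 of 19938 genes were bright enough to be tested. The 4 groups were fitted together with limma, and a gene was called at a Benjamini-Hochberg adjusted p below 0.05 over all 11206 genes. Array medians lay between 5.57 and 5.72. The 4 arrays of set 3 scored 12.5 to 52.9 on the first principal component, and the other 8 scored -26.4 to -6.71. The LZ_high array of set 3 also correlated least with the other arrays, at a mean of 0.963 over all probe sets. Values without set 3 are given where a call was lost, a sign turned or a value moved by over 1.5 times. For Slamf6, Cd79a, Btla and Klf2, which also depend on set 3, the values of the sets are printed instead. B cell defining genes had mean levels from 10.56 to 10.70 in LZ_high cells and from 10.38 to 10.59 in DZ_high cells.

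RefSeq promoter windows were found for 4 of the 9 genes called below, and 3 are shown, those of 2 genes that were higher and 1 that was lower in LZ cells. Each has 300 bases (GRCm38.p6), from 250 before to 50 after the most upstream annotated start, 5′ to 3′ on the gene's strand. The windows were searched on both strands for the kappa B motif bound by NF-kB, for the CArG box bound by serum response factor, and for the STAT6 site TTCNNNNGAA. Capitals mark the matches. Fcer2a lies at chr8:3694125-3694424 on the minus strand, Egr2 at chr10:67535249-67535548 on the plus strand, and Myl4 at chr11:104550413-104550712 on the plus strand.
Fcer2a: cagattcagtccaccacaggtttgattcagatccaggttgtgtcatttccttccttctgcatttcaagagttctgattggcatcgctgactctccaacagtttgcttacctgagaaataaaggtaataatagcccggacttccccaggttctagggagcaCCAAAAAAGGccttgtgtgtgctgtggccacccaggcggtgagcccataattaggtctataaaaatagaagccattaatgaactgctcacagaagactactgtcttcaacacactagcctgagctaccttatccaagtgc
Egr2: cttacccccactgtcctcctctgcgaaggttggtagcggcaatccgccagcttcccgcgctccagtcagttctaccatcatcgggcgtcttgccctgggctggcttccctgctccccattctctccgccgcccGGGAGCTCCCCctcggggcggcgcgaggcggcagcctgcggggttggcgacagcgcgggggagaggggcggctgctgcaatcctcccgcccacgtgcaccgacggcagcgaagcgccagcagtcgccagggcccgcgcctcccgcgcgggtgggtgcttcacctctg
Myl4: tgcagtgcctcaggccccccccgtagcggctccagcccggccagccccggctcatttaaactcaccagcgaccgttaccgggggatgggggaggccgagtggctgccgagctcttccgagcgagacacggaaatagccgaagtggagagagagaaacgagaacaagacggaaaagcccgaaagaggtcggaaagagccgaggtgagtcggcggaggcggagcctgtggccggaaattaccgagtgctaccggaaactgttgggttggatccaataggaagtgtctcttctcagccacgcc

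The Fcer2a window holds 1 CArG box match. The Egr2 window holds 2 kappa B matches that overlap in 1 stretch, and the Myl4 window holds no match to any of the 3 motifs. The remaining window, of Bcl2a1c (chr9:114329885-114330184, plus strand), has no match either. Among 32851 promoter windows of the same length, 8.46% hold a kappa B match, 1.63% a CArG box and 6.95% the STAT6 site. At other annotated starts, a match to any of the 3 motifs is present in 4 of the other 4 Egr2 windows and in 1 of the other 2 Fcer2a windows. These matches describe the letters of the windows and say nothing about binding in these cells.

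The comparison asks which genes differ between the zones among cells that had reached high affinity. LZ_high cells had more RNA of Fcer2a, Cd83, Tnfsf9 and Cd86, by 2.77-fold to 4.69-fold, and these 4 were the genes called, or 0.0357% of the genes tested. All 4 were higher in LZ cells (0.0357%) and 0 were called lower by limma. At an unadjusted limma p below 0.05, 293 genes were higher (2.61%) and 215 lower (1.92%). With no difference at all, that threshold passes a share of 0.05 of genes on average. In sorted bulk samples, fewer cells of a type and less RNA per cell cannot be told apart. With the matched set as a replicate block, 9 genes were called (0.0803%). The block added Egr2 and Bcl2a1c to the genes higher in LZ cells, which made 6 (0.0535%), and called 3 genes lower in LZ cells (0.0268%), which were Pafah1b3, Myl4 and Cd93. Of these, Cd93 was bright enough to be tested only through its DZ_high arrays. Without the LZ_high array of set 3, the blocked fit called 4 genes, Cd83, Cd86, Fcer2a and Pafah1b3. Without all of set 3 it called 3, Cd83, Fcer2a and Slfn2. The blocked calls of Tnfsf9, Egr2, Bcl2a1c, Myl4 and Cd93 were thus lost in both. For Tnfsf9 the limma adjusted p was 0.051 in the former fit and 0.0873 in the latter. With the set as a random block instead, limma called 12 genes, 10 higher in LZ cells, Hhex, Casp4 and Slamf1 among them, and 2 lower, Myl4 and Selenop, so Pafah1b3 and Cd93 were not called. The calls draw on the spread of all 12 arrays: a fit on the 6 high-affinity arrays alone called 0 genes, with 379 at an unadjusted p below 0.05, and 0 with the replicate block, with 631.

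**Figure D1:**
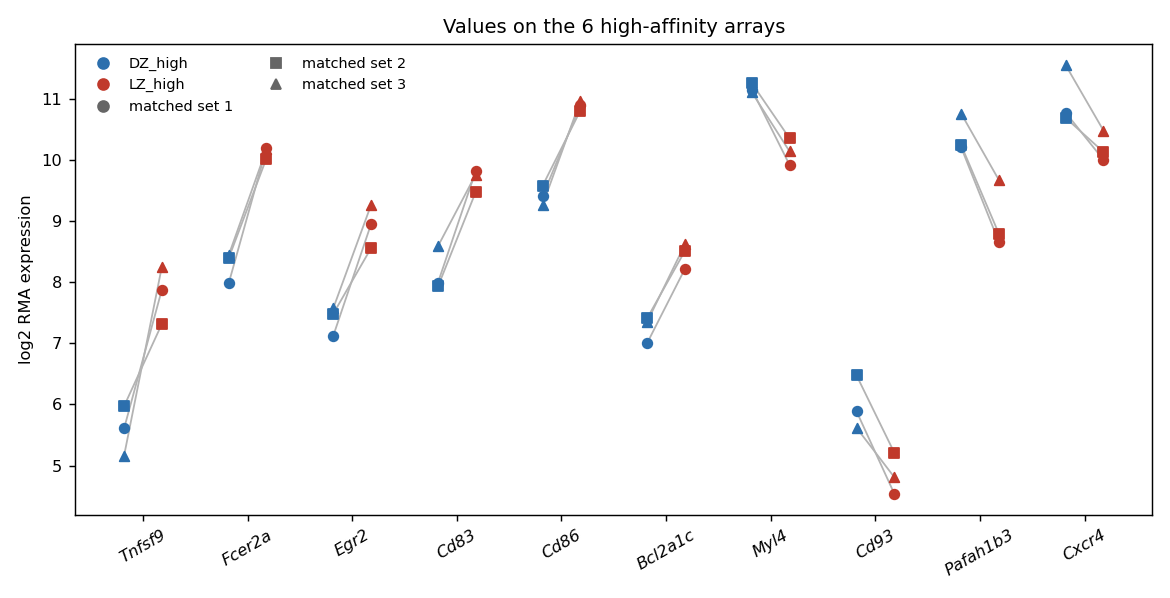
log2 RMA expression of the 9 genes called in either fit and of Cxcr4 on the 3 DZ_high arrays (blue) and the 3 LZ_high arrays (red), with marker shapes for the matched sets and lines that join arrays of 1 set. For each of the 10 genes the 2 groups do not overlap, and Tnfsf9 runs from 5.16 to 8.24.

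Fcer2a, which encodes CD23, the low-affinity IgE receptor of follicular B cells, stood at 7.98, 8.40 and 8.44 in the DZ_high cells of sets 1, 2 and 3 and at 10.19, 10.02 and 10.17 in the LZ_high cells. Every LZ_high array was more than 1 log2 unit above every DZ_high array. The difference was 1.85 ± 0.18 (SE of the fit, n = 3 per group), or 3.62-fold, with a limma adjusted p of 0.00498 (probe set 10576757). It was called in each of the 12 fits that left out 1 array.

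Cd83 encodes a membrane protein of activated B cells and dendritic cells that keeps MHC class II and CD86 on the surface. Its values were 7.99, 7.93 and 8.59 in DZ_high cells and 9.82, 9.47 and 9.76 in LZ_high cells, so the groups lay well apart, with the highest DZ_high value on the set 3 array. The difference was 1.51 ± 0.19 (limma adjusted p = 0.0243; probe set 10404840).

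Tnfsf9 encodes the 4-1BB ligand, which costimulates T cells through 4-1BB. It was dim in DZ_high cells at 5.61, 5.97 and 5.16 and stood at 7.87, 7.31 and 8.24 in LZ_high cells. The difference of 2.23 ± 0.29 (limma adjusted p = 0.0243; probe set 10446229) was the largest mean rise among the genes named here, and it ranged from 1.34 in set 2 to 3.08 in set 3. Without set 3 the Tnfsf9 difference was 1.80 with a limma adjusted p of 0.103, which is not called.

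The calls of Cd83 and Tnfsf9 also depended on single arrays. Cd83 passed without DZ_high 3, DZ_low 1 or LZ_low 2 and was lost in the other 9 fits without 1 array, with adjusted p values from 0.0538 without LZ_high 2 to 0.147 without LZ_high 1. Tnfsf9 passed without DZ_low 1, LZ_high 2, LZ_low 1 or LZ_low 2 and was lost in the other 8, with adjusted p values from 0.0527 without DZ_high 2 to 0.147 without LZ_high 1. The differences themselves stayed between 1.39 and 1.72 for Cd83 and between 2.01 and 2.48 for Tnfsf9. The count of called genes fell to 2, Cd86 and Fcer2a, without DZ_high 2, DZ_low 2, DZ_low 3, LZ_high 1 or LZ_low 3.

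Cd86 and Cxcr4 were used for the sort, so their values describe the gate and are no finding. Cd86, the ligand of CD28 on T cells, had values of 9.41, 9.58 and 9.27 in DZ_high cells and 10.90, 10.81 and 10.97 in LZ_high cells (probe set 10439312). Its difference was 1.47 ± 0.15 (limma adjusted p = 0.00498, and 0.0863 in a blocked fit without set 3). Cxcr4 stood at 10.77, 10.69 and 11.55 in DZ_high cells and at 10.00, 10.13 and 10.48 in LZ_high cells. These groups did not overlap, yet the difference of -0.80 ± 0.26 did not pass the test (limma adjusted p = 0.727, and 0.201 with the replicate block).

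Egr2, a zinc finger transcription factor induced by antigen receptor signalling, stood at 7.13, 7.49 and 7.58 in DZ_high cells and at 8.95, 8.56 and 9.26 in LZ_high cells. The groups were almost 1 log2 unit apart at their nearest values. The difference was 1.52 ± 0.25 (limma adjusted p = 0.0816, and 0.0169 with the replicate block; probe set 10363735). Bcl2a1c belongs to the A1 family of apoptosis regulators, whose members are near-identical, so its probe set may also read its relatives. It had 7.01, 7.41 and 7.36 in DZ_high cells and 8.22, 8.51 and 8.62 in LZ_high cells, a difference of 1.19 ± 0.18 (limma adjusted p = 0.054, and 0.0446 with the replicate block).

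On the dark zone side, Pafah1b3, a catalytic subunit of the enzyme that inactivates platelet-activating factor, had values of 10.21, 10.24 and 10.76 in DZ_high cells and 8.66, 8.80 and 9.67 in LZ_high cells. In both zones its set 3 value was the highest, which the block takes up, and the difference was similar in the 3 sets at -1.55, -1.45 and -1.09. The mean was -1.36 ± 0.29 (limma adjusted p = 0.278, and 0.0379 with the replicate block; probe set 10561017). Myl4, which encodes a myosin light chain known from embryonic muscle and the heart atrium, stood at 11.15, 11.25 and 11.11 in DZ_high cells and at 9.92, 10.35 and 10.14 in LZ_high cells. This DZ group was tight, with an SD of 0.08, and the difference was -1.03 ± 0.15 (limma adjusted p = 0.054, and 0.0446 with the replicate block; probe set 10381798). Cd93 encodes a lectin-like receptor of early B cells and plasma cells. It was dim throughout, with 5.89, 6.48 and 5.62 in DZ_high cells against 4.54, 5.21 and 4.81 in LZ_high cells, and differed by -1.14 ± 0.28 (limma adjusted p = 0.41, and 0.0446 with the replicate block). Cd93 reached the array median only on the DZ_high arrays. It thus entered the test through the group where it is high, and its direction and call partly follow from that filter.

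**Figure D2:**
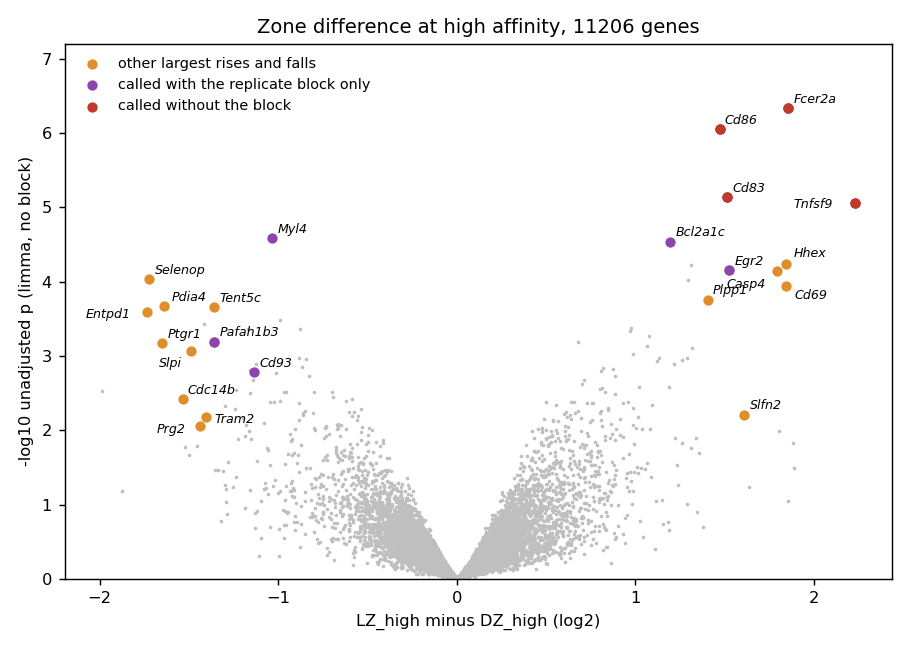
Mean difference (x axis, LZ_high minus DZ_high, log2) against -log10 of the unadjusted limma p without the block (y axis) for the 11206 genes tested, with colours for genes called without the block, called with the replicate block only, and the other largest rises and falls. The 4 genes called without the block sit at the top right, at differences from 1.47 to 2.23.

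Beyond the called genes, the 10 largest rises and 10 largest falls were taken among the 151 genes with an unadjusted p below 0.01 that moved 1 way in all 3 sets (82 higher, 69 lower in LZ cells). That selection fixes their direction. The rises beside the called genes were Hhex, Cd69, Casp4, Slfn2 and Plpp1, none of which passed the adjusted threshold without the block or with the fixed replicate block (0.0567 for Hhex and 0.0647 for Casp4 with it). With a random block, Hhex (limma adjusted p = 0.0303) and Casp4 (0.0405) passed. Hhex, a homeobox transcription factor known for its part in memory B cell formation, had values of 5.72, 6.16 and 5.67 in DZ_high cells and 7.99, 7.97 and 7.12 in LZ_high cells. The Hhex groups were about 1 log2 unit apart, with the lowest LZ_high value on the set 3 array, and the difference was 1.84 ± 0.29 (limma adjusted p = 0.0816, and 0.0567 with the replicate block).

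Cd69 encodes an early activation receptor that keeps lymphocytes in tissue by opposing the sphingosine phosphate receptor S1pr1. It stood at 5.37, 6.14 and 5.56 in DZ_high cells and at 7.78, 6.96 and 7.86 in LZ_high cells, with the smallest difference in set 2. The Cd69 difference was 1.84 ± 0.32 (limma adjusted p = 0.0986, and 0.0797 with the replicate block). Casp4, an inflammatory caspase, had a difference of 1.79 ± 0.29, and the Schlafen family gene Slfn2 one of 1.61 ± 0.48. Slfn2 was higher in set 3 in both zones, and its limma adjusted p was 0.689, and 0.0578 with the replicate block. Plpp1, a lipid phosphate phosphatase, had near-equal differences in the sets, at 6.54, 6.68 and 6.34 in DZ_high cells against 7.98, 8.08 and 7.73 in LZ_high cells, but missed the threshold (limma adjusted p = 0.141, and 0.0749 with the replicate block).

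The largest falls beside Pafah1b3 were Entpd1, Selenop, Ptgr1, Pdia4, Cdc14b, Slpi, Prg2, Tram2 and Tent5c. None of these 9 was called without the block or with the fixed replicate block. Entpd1, which encodes CD39, an enzyme that breaks down extracellular ATP, had 5.74, 5.82 and 6.86 in DZ_high cells and 4.08, 4.69 and 4.44 in LZ_high cells, a difference of -1.74 ± 0.33. The set 3 DZ_high value was the highest and all LZ_high values were dim. Entpd1 reached the array median only on the DZ_high arrays, so it entered the test through the group where it is high. Nt5e, which encodes CD73, the enzyme of the following step that makes adenosine, differed by -0.74 ± 0.28. Selenop, a selenium transport protein, had values of 6.48, 7.30 and 7.63 in DZ_high cells and 5.64, 5.66 and 4.94 in LZ_high cells (limma adjusted p = 0.0897, and 0.0647 with the replicate block). The random block called it, at an adjusted p of 0.0444 in limma. Ptgr1, a prostaglandin reductase, stood at 8.88, 9.47 and 9.74 against 7.17, 8.14 and 7.83, and differed by -1.65 ± 0.36.

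Pdia4, a protein disulfide isomerase of the endoplasmic reticulum, had near-equal differences in the 3 sets, with 9.74, 9.47 and 9.61 in DZ_high cells and 7.95, 7.96 and 7.99 in LZ_high cells. The difference was -1.64 ± 0.31 (limma adjusted p = 0.155, and 0.0647 with the replicate block). A further, dim Pdia4 probe set with a mean of 4.33 gave -0.43. Slpi, a secreted protease inhibitor, stood at 10.67, 10.89 and 10.19 against 8.81, 9.59 and 8.90. Prg2, a granule protein, was the 1 gene of these 20 whose groups overlapped, since the set 3 DZ_high array read 5.81 and the set 2 LZ_high array 5.85. Cdc14b, a cell cycle phosphatase, had an SD of 1.03 in LZ_high cells, where the set 3 array read 4.24. Its difference was -1.54 ± 0.42, and -0.86 without set 3. Tram2, a protein of translocation into the endoplasmic reticulum, differed by -1.41 ± 0.42, and Tent5c, a poly(A) polymerase known from plasma cells, by -1.36 ± 0.25.

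**Figure D3:**
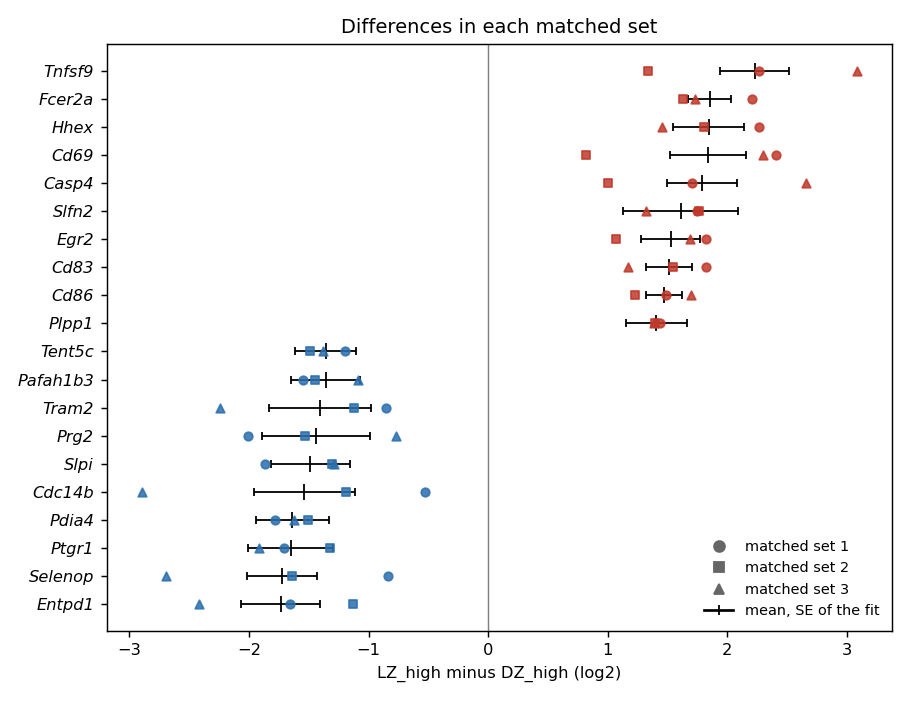
LZ_high minus DZ_high (x axis, log2) in each matched set for the 10 largest rises (red) and 10 largest falls (blue), with the mean and its SE from the limma fit as a black bar. In set 3 the difference reached 3.08 for Tnfsf9, -2.89 for Cdc14b and -2.69 for Selenop, while Plpp1, Pdia4 and Tent5c were nearly level over the 3 sets.

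The gene lists below are described by counts and medians beside those of all 11206 genes, whose median difference was -0.0054. They were written with earlier results of these data known, so their counts and medians are descriptions and no independent support. Over all genes tested, 2.61% had an unadjusted p below 0.05 and were higher in LZ cells and 1.92% were lower. In all 3 sets, 13.9% were higher in LZ cells and 11.5% lower, and the groups did not overlap for 3.72% on the high and 3.66% on the low side. Many genes are on more than 1 list, so the lists are not independent. For example, Cd83 and Cd40 are on those of T cell help and NF-kB, Fcer2a on those of T cell help and naive cells, and Irf4 on those of NF-kB and plasma cells. Birc3 is on those of NF-kB and apoptosis, and Cr2 on those of B cell receptor signalling and naive cells. The dark zone list shares Polh with hypermutation, Cxcr4 with positioning receptors and Gcsam with germinal centre identity.

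On the list for T cell help and costimulation, 16 genes were tested with a median of 0.41. Of them, 4 were the called genes Fcer2a, Cd86, Cd83 and Tnfsf9, where Fcer2a is listed although it encodes an IgE receptor. All 4 are zone markers given beforehand and Cd86 was used for the sort, so this count was partly fixed in advance. The median fell to 0.21 without LZ_high 1. At the unadjusted threshold, 6 members were higher and 1 was lower. Slamf1, a homophilic receptor between B and T cells, differed by 1.30 ± 0.22 (limma adjusted p = 0.0897, and 0.0602 with the replicate block). Cd40, the receptor for CD40 ligand, differed by 0.55 ± 0.21 with a larger value in set 1 (0.86) than in set 3 (0.24). Slamf6, a relative of Slamf1, had a value of -0.59 ± 0.23, with -0.23, -0.50 and -1.03 in the sets. The inducible costimulator ligand gene Icosl differed by 0.46 and the PD-L1 gene Cd274 by -0.30, both with an unadjusted p above 0.05.

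NF-kB subunits and targets had a median of 0.41 over 19 tested members, of which 18 had a positive value, 13 were higher in all 3 sets and 1 was lower in all 3. The 7 with an unadjusted p below 0.05 were all higher in LZ cells, and Cd83 was the called member. Birc3, a ubiquitin ligase of this pathway, had values of 8.59, 8.71 and 7.83 in DZ_high cells and of 9.31, 9.19 and 9.26 in LZ_high cells, a difference of 0.88 ± 0.21 (adjusted p = 0.4 by limma). Nfkbia, the inhibitor that NF-kB itself induces, differed by 0.89 ± 0.22, with 1.64 in set 1 and 0.44 and 0.59 in the other 2 sets. Ebi3, a cytokine subunit, differed by 0.73 ± 0.24 and Relb, a subunit of the noncanonical branch, by 0.39 ± 0.15. The median of the 19 genes was largest in set 1 at 0.72 and lowest in set 3 at 0.19.

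Among 15 immediate early genes the median was 0.38, with 4 members at an unadjusted p below 0.05, all higher in LZ cells, namely Egr2, Cd69, Nab2 and Egr1. Egr1 stood at 6.14, 6.39 and 7.06 in DZ_high cells and at 7.23, 7.14 and 8.06 in LZ_high cells. In every set LZ was higher by 0.75 to 1.09, but the level moved with the set, and the difference of 0.95 ± 0.42 was not called (adjusted p = 1.0, and 0.266 with the replicate block, by limma). Nab2, a partner protein that represses Egr factors, differed by 0.52 ± 0.18. This median is not firm, since it was 0.17 without LZ_high 3 and 0.61 without DZ_high 3.

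Genes of B cell receptor signalling had a median of -0.09 over 16 tested members. Its sign rests on single arrays, since it was 0.16 without DZ_high 3 and 0.13 without set 3. Of these, 3 were higher in LZ cells at the unadjusted threshold. Cd72, a co-receptor that dampens receptor signalling, had 7.60, 8.53 and 8.36 in DZ_high cells against 9.74, 9.62 and 9.06 in LZ_high cells, a difference of 1.31 ± 0.29 that narrowed from 2.14 in set 1 to 0.70 in set 3. Cr2, the complement receptor CD21 that lowers the threshold of the B cell receptor, stood at 9.23, 9.58 and 8.62 against 10.54, 10.40 and 9.85, and differed by 1.12 ± 0.26 (limma adjusted p = 0.355, and 0.0611 with the replicate block). Cd22, an inhibitory co-receptor, differed by 0.42 ± 0.17 with overlapping groups. The signal chains Cd79a and Cd79b differed by -0.08 and -0.14. Cd79a had 0.19, 0.04 and -0.48 in the sets, so its sign rests on set 3.

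All 10 tested MHC class II genes had a positive difference and 9 were higher in all 3 sets, but the median was only 0.29 and 1 member, the lysosomal reductase gene Ifi30, had an unadjusted p below 0.05 (0.78 ± 0.28, with 0.84, 0.99 and 0.52 in the sets). H2-Aa, a chain of the MHC class II molecule I-A, stood at 11.42, 11.35 and 11.88 in DZ_high cells and at 11.75, 11.75 and 12.22 in LZ_high cells. Within each set it was higher by 0.33 to 0.41, while the arrays of the 2 zones overlapped. Without single arrays the median of the list ranged from 0.15 (DZ_high 2) to 0.51 (DZ_high 3), and it was 0.18 without LZ_high 3.

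Cholesterol synthesis and uptake genes had a median of 0.34 over 18 tested members, and 8 of them did not overlap between the zones, all on the high side. Of these genes 11 were higher in all 3 sets and 0 were lower in all 3. The enzyme gene Msmo1 was tight, at 8.73, 8.81 and 8.83 in DZ_high cells and 9.34, 9.43 and 9.39 in LZ_high cells. Its difference of 0.60 ± 0.18 was not called, nor were those of Sc5d (0.76 ± 0.21), Hmgcs1 (0.63 ± 0.21) and Cyp51 (0.56 ± 0.18), with adjusted p values from 0.608 to 0.767 in limma. The median was 0.22 without DZ_high 1.

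Myc itself had a difference of 0.65 ± 0.37 that changed sign between sets, with 1.77 in set 1, 0.74 in set 2 and -0.56 in set 3, and its groups overlapped. Without set 3 it was 1.25. The 23 tested Myc targets and ribosome biogenesis genes had a median of 0.24, and 11 were higher in all 3 sets against 0 lower. The differences were small: Nop16, a nucleolar protein, had 0.65 ± 0.28 and the nucleolar chaperone Nolc1 0.46 ± 0.21, and Nop16 was the 1 member with an unadjusted p below 0.05.

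Genes known from the dark zone had a median of -0.54 over 11 tested members, of which 10 had a negative value, 8 were lower in all 3 sets and 5 had groups that did not overlap. The median was -0.33 without set 3 and -0.34 without its LZ_high array. The list holds Cxcr4, which was used for the sort, and Pafah1b3, a zone marker given beforehand, so these counts were partly fixed in advance. Beside Pafah1b3 and Cxcr4 these included Polh, the error-prone polymerase of somatic hypermutation, at 10.13, 10.30 and 10.55 in DZ_high cells and 9.28, 9.46 and 9.71 in LZ_high cells. The level of Polh differed between the sets, but within each set the difference was -0.86, -0.84 and -0.84. In the fit without the block, which ignores the pairing, its SE was 0.19 (limma adjusted p = 0.349, and 0.0778 with the replicate block). Gcsam, a signalling adaptor of germinal centre B cells, differed by -1.05 ± 0.29, and Foxp1, a forkhead factor, by -0.39 ± 0.15. Foxo1, which is needed for the dark zone programme, differed by only -0.18 ± 0.20, and Bach2 by -0.51 ± 0.31 with a value of 0.03 without set 3.

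**Figure D4:**
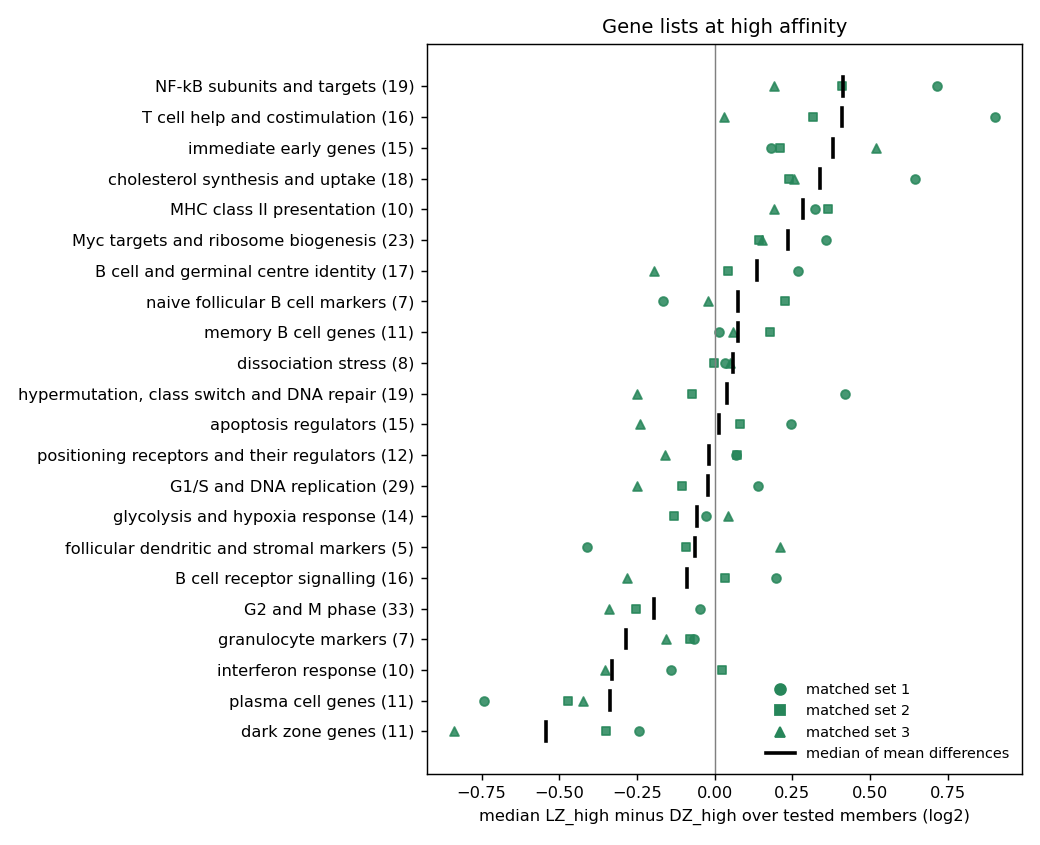
Median LZ_high minus DZ_high (x axis, log2) over the tested members of each gene list with 5 or more tested members (number in brackets; the given zone markers and B cell defining genes are not drawn), for the mean of the sets (black bar) and for each matched set (points). Among the lists drawn, NF-kB and T cell help have the highest medians, 0.41 each, and dark zone genes the lowest, -0.54, while T cell help runs from 0.03 in set 3 to 0.90 in set 1.

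Of 33 genes of G2 and M phase, 9 were lower in LZ cells at the unadjusted threshold and 0 were higher, 18 were lower in all 3 sets and 4 higher, and 11 had groups that did not overlap, all lower. None was called. Ccnb2, a mitotic cyclin, stood at 10.91, 11.15 and 11.28 in DZ_high cells and at 10.28, 10.78 and 10.19 in LZ_high cells, a difference of -0.69 ± 0.19 (limma adjusted p = 0.608). The mitotic kinase gene Aurka differed by -0.59 ± 0.18, the anaphase activator Cdc20 by -0.67 ± 0.21 and the kinesin Kif20a by -0.49 ± 0.16. The proliferation marker Mki67 differed by -0.17 ± 0.33, with values of 9.96, 10.52 and 9.86 in DZ_high cells that overlap the 9.65, 10.41 and 9.79 in LZ_high cells. The list's median of -0.20 was -0.11 without DZ_high 2 or LZ_high 3, -0.33 without LZ_high 2 and -0.42 without DZ_high 3. The 29 tested genes for G1/S and replication had -0.02 as their median, with 3 higher and 3 lower in all 3 sets, and the thymidylate synthase gene Tyms had 0.62 ± 0.21, and 0.39 without set 3. Without set 3 the G1/S median was 0.02.

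Plasma cell genes leaned to the dark zone. Over 11 tested members the median was -0.34, with 7 lower in all 3 sets and 1 higher. Jchain, the chain that joins IgM and IgA polymers, had values of 11.53, 11.24 and 11.41 in DZ_high cells and 10.20, 10.15 and 10.80 in LZ_high cells, a difference of -1.01 ± 0.25 (limma adjusted p = 0.413, and 0.0785 with the replicate block). The endoplasmic reticulum genes Mzb1 and Creld2 differed by -0.83 ± 0.20 and -0.81 ± 0.24. Irf4, the transcription factor that plasma cells need and NF-kB induces, went the other way, with 5.92, 6.40 and 6.33 against 7.05, 6.44 and 7.30, a difference of 0.71 ± 0.29.

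Genes of B cell and germinal centre identity had a median of 0.14 over 17 tested members, and 0.23 without set 3. Gcsam, given above, had -1.05. Bcl6, the master regulator of germinal centre B cells, differed by 0.32 ± 0.18 with overlapping groups, and Pax5, which maintains B cell identity, by 0.07 ± 0.31, and 0.28 without set 3. The transcription factors Ebf1 and Bcl11a had 0.66 ± 0.26 and 0.46 ± 0.15, and the CD45 gene Ptprc had 0.55 ± 0.27. Hypermutation, class switch and DNA repair genes had a median of 0.04 over 19 members, apoptosis regulators of 0.01 over 15 and positioning receptors of -0.02 over 12, and glycolysis and hypoxia genes of -0.06 over 14. Without set 3, the hypermutation median was 0.21 and that of apoptosis regulators 0.14. Single members within them differed more, with Bcl2l1, which encodes the survival protein BCL-XL, at 0.78 ± 0.27, the pro-apoptotic Bcl2l11 at -0.80 ± 0.26 (-0.43 without set 3) and the aldolase Aldoc at 1.02 ± 0.31. Memory B cell genes had a median of 0.08 over 11 tested members, and 0.14 without set 3.

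Markers of other cell types were checked on the same arrays. Naive follicular B cell markers had a mean level of 7.43 to 7.57 on LZ_high arrays and 7.10 to 7.19 on DZ_high arrays, so the groups did not overlap. Their median difference was 0.08 over 7 tested genes: Fcer2a and Cr2 had 1.85 and 1.12, Btla had 0.49, and Klf2, Ccr7 and S1pr1, which mark recirculating cells, had 0.08, -0.23 and -0.61. In the sets, Btla had 0.96, 0.52 and -0.02, and Klf2 had -0.17, -0.09 and 0.49. The median turned to -0.13 without set 3 and to -0.18 without its LZ_high array. Of T cell markers 2 of 11 were bright enough to test, with mean levels of the list from 4.85 to 5.15 in LZ_high cells and 5.16 to 5.27 in DZ_high cells. These ranges do not overlap. The defining genes Cd3d and Cd3g lay between 3.94 and 4.66, and Cd28, which plasma cells also express, had a mean of 5.41 in DZ_high and 4.43 in LZ_high cells and was too dim to be tested. Macrophage markers (4 of 11 tested) had mean levels of 4.85 to 5.28 in LZ_high cells and 5.10 to 5.22 in DZ_high cells, and 1 of 7 dendritic, 5 of 11 follicular dendritic and stromal, and 2 of 8 erythroid markers were tested. Granulocyte markers (7 of 9 tested) had mean levels of 5.22 to 6.71 in LZ_high cells and 5.32 to 6.88 in DZ_high cells, and S100a9 alone ran from 6.07 to 10.37 on the 6 arrays. The part of these cell types in the results was not tested. Interferon response genes had a median of -0.33 over 10 tested members, -0.07 without set 3 and -0.20 without DZ_high 3, and dissociation stress genes of 0.06 over 8, and 0.04 without set 3.

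The same zone contrast in low-affinity cells uses other arrays of the same matched sets. There, 4 genes were called (0.0357%), Fcer2a, Cd83, Hhex and Myl4, and 25 with the replicate block (0.223%). Fcer2a and Cd83 were the 2 genes called at both affinities without the block, and Egr2, Pafah1b3 and Myl4 joined them with it, which made 5. The zone difference itself did not pass a test between affinities for any gene: the interaction called 0 genes without the block (0%) and 0 with it (0%), its smallest adjusted p was 1, and 177 genes (1.58%) had an unadjusted interaction p below 0.05 (408 with the replicate block).

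Some genes had near-equal zone differences at both affinities. Fcer2a had 1.85 at high and 1.54 at low affinity, Cd83 1.51 and 1.70, Egr2 1.52 and 1.5, Pafah1b3 -1.36 and -1.40, Myl4 -1.03 and -1.16, and Selenop -1.72 and -1.96. Others had a larger difference in the high-affinity cells, with no interaction called. Genes named for a large difference at high affinity tend to show a smaller one on other arrays, so this partly follows from that choice. Cd86 had 1.47 at high against 0.80 at low affinity, and Tnfsf9 had 2.23 against 1.16. Since CD86 was used for the sort, the Cd86 values describe the gate at each affinity and are no finding. In the limma interaction test across all genes the unadjusted p was 0.00925 for Cd86 and 0.0238 for Tnfsf9, and the adjusted p was 1 for both.

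Among named genes, Cd69 had the smallest interaction p, with 1.84 ± 0.32 at high and 0.08 ± 0.32 at low affinity, where the sets gave 0.17, 0.84 and -0.77. The interaction was 1.76 ± 0.45 (unadjusted p = 0.00237 in limma, adjusted p = 1). Pdia4 had -1.64 at high and -0.27 at low affinity (unadjusted p = 0.00885), Casp4 1.79 and 0.60 (0.0152), Entpd1 -1.74 and -0.56 (0.0279), and Slpi -1.49 and -0.42 (0.0419). Cd69, Pdia4, Casp4, Entpd1 and Slpi were picked for large differences at high affinity, so smaller ones at low affinity partly follow from that. Entpd1 was also bright enough to be tested only through its DZ_high arrays, so its larger difference at high affinity partly follows from that filter. The other genes of smallest interaction p were Cdkal1 (0.68 at high, -0.09 at low), Antxr2 (0.08, -1.12) and Ehf (-0.04, -0.74) in 1 direction, and Tmem43 (-0.37, 0.60), Il6st (-0.55, 0.59), Coro2b (-0.73, 0.51) and the microRNA gene Mir697 (-0.99, 1.44) in the other. The high-affinity Mir697 value rests on set 3, with 0.32, -0.69 and -2.59 in the sets, -0.19 without set 3 and -0.36 without DZ_high 3, and those of Antxr2 and Ehf were 0.047 and -0.086 without set 3. None of these passed after adjustment, so the differences between affinities are descriptions.

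Lists set side by side gave medians at high and low affinity of 0.41 and 0.53 for T cell help, 0.41 and 0.46 for NF-kB, 0.34 and 0.54 for cholesterol genes, and -0.54 and -0.45 for dark zone genes. G2 and M phase genes had -0.20 at high and -0.59 at low affinity. B cell receptor signalling genes had -0.09 and 0.38, where the high-affinity value was 0.13 without set 3 and 0.16 without DZ_high 3, and Myc targets 0.24 and 0.01. No test was made of a difference between list medians.

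**Figure D5:**
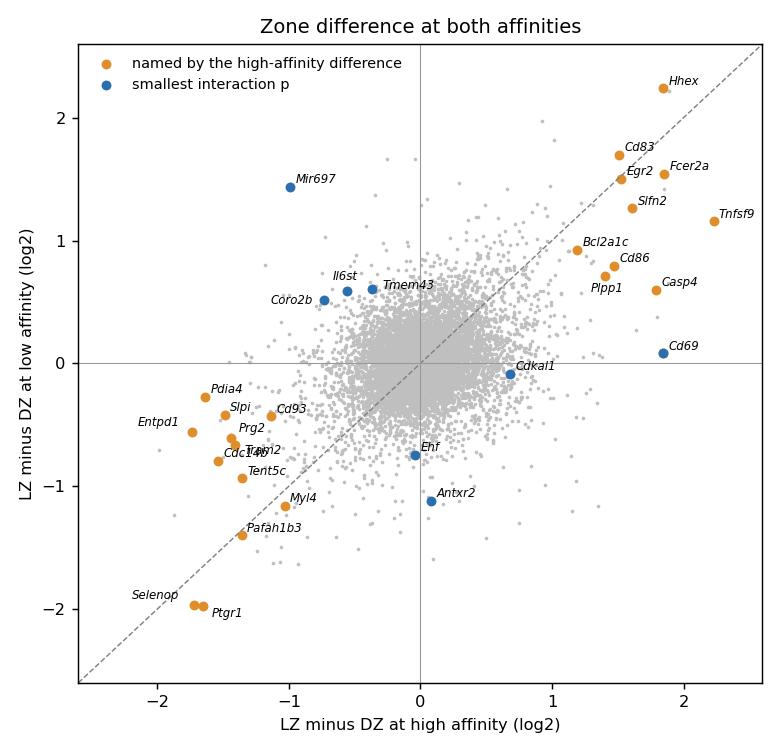
LZ minus DZ at low affinity (y axis, log2) against LZ minus DZ at high affinity (x axis, log2) for 11206 genes, with the called genes and largest rises and falls at high affinity in orange, the genes of smallest interaction p in blue, and a dashed line at equal differences. Fcer2a, Cd83, Egr2, Pafah1b3 and Selenop lie near the line, while Cd69 (1.84 against 0.08) and Pdia4 (-1.64 against -0.27) lie away from it.

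The 3 matched sets agreed only in part. Over all 11206 genes the set differences at high affinity correlated at Pearson r = 0.303 between sets 1 and 2, 0.199 between sets 2 and 3 and -0.0552 between sets 1 and 3, as a description over genes that share arrays and are not independent. At low affinity the same values were 0.302, 0.274 and 0.218. The SD of the differences over genes was 0.449 in set 1, 0.27 in set 2 and 0.667 in set 3. Without set 3, limma called 5 genes, Cd83, Cd86, Fcer2a, Nxpe2 and Slfn2, which hold 3 of the 4 called on all arrays.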

How the data were processed

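Gene expression was measured with 1-colour Affymetrix mouse gene arrays on amplified, biotin-labelled cDNA from sorted cells, 12 arrays in 4 groups of 3. The deposited values are log2 expression per probe set; per the submitters' processing notes the authors used RMA and the build mm8, and the log base was read from the values (1.99 to 13.74). Of 28853 probe sets, 21789 had 1 gene symbol, 1621 several and 5443 none. Genes were tested when at least 3 of 12 arrays reached the array's median over all probe sets. Using limma 3.58.1 (R 4.3.3), group means of all 12 arrays were fitted with lmFit and eBayes and tested two-sided, and Benjamini-Hochberg adjustment ran over 11206 genes. The fit was tested on simulated data.

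The description suffixes pair the arrays: after group means were removed, the LZ_high and DZ_high arrays of sets 1, 2 and 3 correlated at 0.237, 0.464 and 0.456 over genes, and 17 of 18 same-set pairs were over 0.1. The fit with this replicate block was an alternative (9 genes called against 4), as were a random block, other filters and normalizations, array weights and leaving out each array. The number of arrays limits the precision.

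Named genes were those called in either fit, the 10 largest rises and falls, 6 given zone markers, up to 4 members of each described list of smallest p, some others of those lists, a fixed set of regulators, and the 4 genes of smallest interaction p in each direction. Predicted genes and receptor segments were not named. The genes and lists were chosen with earlier results of these data known. Genes without a promoter window in the RefSeq table have none printed.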

Additional observations from a re-analysis of the deposited data

Results flagged for a closer look

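For 2 of the 71 named genes screened, the zone difference had opposite signs at the 2 affinities in every matched set. The share of all 11206 genes that do so was not counted. At high affinity alone, 13.9% of all genes were higher and 11.5% lower in LZ cells in all 3 sets. Il6st was named for its small interaction p, so its flag partly follows from that choice. Nop16 was named for its small p at high affinity within its list, so its shared direction there partly follows from that. The count of 2 is therefore a description, with no share to set it against. Nop16 was higher in LZ cells in all 3 high-affinity sets (0.62, 0.49 and 0.84) and lower in all 3 low-affinity sets (-0.37, -0.21 and -0.67). The difference between the contrasts was 1.0647 on the log2 scale, with an unadjusted interaction p of 0.0206 and an adjusted p of 1 in limma. Il6st, which encodes the shared cytokine receptor chain gp130, was lower in LZ cells at high affinity (-0.16, -0.58 and -0.92) and higher at low affinity (0.31, 0.51 and 0.95). This interaction was -1.143 (unadjusted p = 0.00393, adjusted p = 1). Neither passed the test over all genes.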

How the results depend on the processing

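The count of genes called for LZ_high minus DZ_high, 4, became 9 with the replicate block, 12 with a random block and 146 with array weights (73 higher, 73 lower; the weight iteration stopped before it converged, and weights ran from 0.213 for LZ_high 3 to 9.15 for LZ_high 2). It was 0 when only the 2 groups were fitted, with or without the block, and 2 to 5 without 1 array. The low-affinity count, 4, became 25 with the replicate block, 18 with a random block, 7 after quantile normalization, 40 with array weights, 40 in a blocked fit without the LZ_high array of set 3, 0 when only 2 groups were fitted and 0 to 5 without 1 array. The interaction count was 0 in each fit that held all 4 groups. For 71 of the named genes under 26 alternatives, 1736 of 1830 values kept direction and call, 30 lost the call, 53 gained it, and 11 changed sign. The sign changes were in Bach2 (-0.5115 on all arrays, 0.032 without set 3, with and without the block), Mki67 (0.0048 with array weights, -0.3965 to 0.037 without 1 array), Pax5 (-0.1126 to 0.3625 without 1 array), Antxr2 (-0.1096 with array weights, -0.0822 in the blocked fit without LZ_high 3) and Ehf (-0.1184 to 0.0312 without 1 array). Some genes named above, such as Cd79a and Klf2, are not among the 71. The causes were not tested. For 39 of 699 list medians the value moved by more than the spread between sets. No scanner background was used, so dim genes have no detection call.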
